A study of Homo sapiens with 8 samples.

Results

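The 10-fold step from 24 to 240 µg/ml bleomycin was followed across all genes in 4 of the 8 libraries of the series, the 2 libraries at 240 µg/ml and the 2 at 24 µg/ml, which were chosen by their labelled dose. All 8 libraries came from H7, an established line of human embryonic stem cells labelled wild type, whose cells were carried through endoderm and foregut stages to lung progenitors over 21 days. They were then kept for 3 days submerged on inserts and for 7 days at an air-liquid interface. The labels call the result differentiated type 2 alveolar cells, the cells of the lung alveolus that make surfactant. Every group shares this origin, and the 3 treated groups had 500 µl of bleomycin at 24, 240 or 480 µg/ml on the apical side of the insert for 24 hours, while 1 group stayed untreated. The stock of bleomycin is labelled 10 µg/ml, which is below every dose used. The labels do not say whether the 2 libraries of a group were separate cultures, so every p-value here speaks only of how far such libraries lie apart, a spread that may be technical.

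Bleomycin is a glycopeptide drug that, with bound metal and oxygen, cuts DNA strands. Broken DNA is sensed by kinases that stabilise the transcription factor p53, whose targets stop the cell cycle, repair DNA or start cell death, and arrested cells also lose the messenger RNA of genes used in division. In the lung, type 2 cells are the stem cells of the alveolus, and bleomycin injury is a common way to provoke fibrosis in animals. The series was set up to look for fibrosis-related expression in such cells after bleomycin, and the step between the doses asks what a 10-fold higher dose adds to the lower one.

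Levels are given as CPM, read counts scaled to the size of each library by TMM factors, in the order replicate 1 and replicate 2 of a dose. A fold change is 240 over 24 µg/ml on the log2 scale ± SE, and a gene is said to rise or fall only where the adjusted p of edgeR's quasi-likelihood test over 18303 genes was under 0.05. The 4 libraries held 53431773 to 67715984 counts. Where a gene has a count of 0, up to 3 counts remain possible, or 0.0443 to 0.0561 CPM depending on the library, a limit of counting error only. Ribosomal RNA genes took 2.93% of counts in 24 µg/ml replicate 1 and 1.57% to 1.78% in the other 3 libraries. Defining markers of the labelled cell type were low or absent: SFTPC, the surfactant gene most particular to type 2 cells, was at 0 counts in 3 of the 4 libraries and at 5 counts in replicate 2 of 24 µg/ml. SFTPA1 and SFTPA2 had at most 2 and 7 counts, and NKX2-1, the lung transcription factor gene, had 33 and 87 counts at the lower dose against 15 and 16 at the higher. AFP, a fetal liver gene, took 4.57% and 3.37% of counts at the lower dose, 6.34% and 5.84% at the higher. Per length, AFP had a mean TPM of 37954 at 24 µg/ml, against 19.7 for the surfactant gene SFTPB.

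The step changed the level of 1250 of the 18303 genes tested, 6.83%. Of these, 612 rose (3.34%) and 638 fell (3.49%), and in all 1250 both libraries of 240 µg/ml lay beyond both libraries of 24 µg/ml. A lack of overlap is thus shared by every called gene, and where mentioned below it adds no support to a call. Over all genes tested the median log2 fold change was 0.01, and both libraries of 240 µg/ml lay above both of 24 µg/ml in 33.2% of genes and below them in 31.7%. Most changes were modest: the median size among the called genes was 0.85 on the log2 scale, 201 rose and 235 fell at least 2-fold, and 36 rose and 29 fell at least 4-fold. An unadjusted p under 0.05 was found for 4583 genes, where 915 would come by chance.

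**Figure D1:**
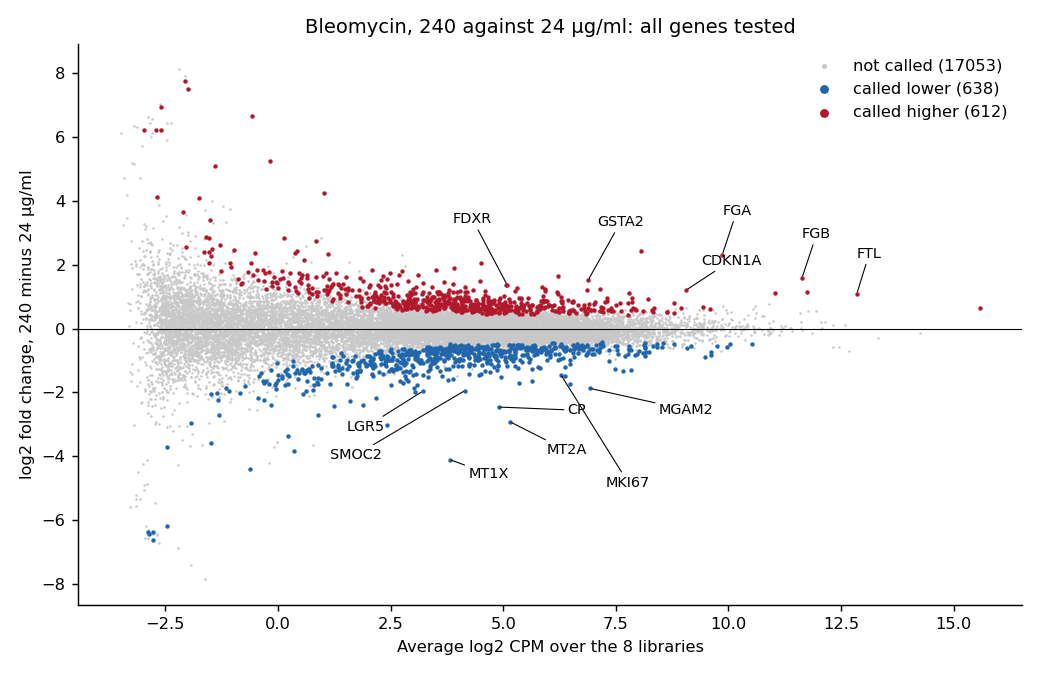
Each point is 1 of the 18303 genes tested, by its average log2 CPM over the 8 libraries (horizontal axis) and its log2 fold change from 24 to 240 µg/ml (vertical axis). The 612 genes called higher are red and the 638 called lower are blue; points far from 0 at the left have libraries at or near 0 counts, so their fitted fold changes are not sizes to rely on.

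The number of genes called moved with the libraries of 480 µg/ml, which entered the fit but not the step, and the cause was not tested. Replicates were least alike at 480 µg/ml, where the log2 ratio of replicate 2 to replicate 1 had an SD over genes of 0.637. This SD was 0.502 for 24 µg/ml and 0.520 for 240 µg/ml. By chi-square per degree of freedom the pair of 480 µg/ml was again least alike, at 107.3. By that measure the pair of 24 µg/ml, at 36.44, was less alike than that of 240 µg/ml, at 15.52. Without both libraries of 480 µg/ml, 2258 genes were called higher and 2464 lower, and these included 1247 of the 1250. Leaving out 480 µg/ml replicate 1 or replicate 2 alone gave 4610 and 4630 calls. With the libraries of 480 µg/ml kept and 1 library of the step left out, the lone library being assumed to vary like the others, few calls were made. There were 124 without 24 µg/ml replicate 1, 16 without replicate 2, 58 without 240 µg/ml replicate 1 and 0 without replicate 2, where edgeR gave 2860 genes an unadjusted p under 0.05. Leaving out an untreated library gave 409 or 405 calls. With the libraries of 480 µg/ml and 1 library of the step all left out, 3662, 3012, 2953 and 2408 genes were called, in the same order, and 1203, 1176, 1157 and 1092 of the 1250 were among them. Of the 128 called genes that are named here, 90, 115, 102 and 128 lost their call when 1 library of the step was left out, and 2, 1, 4 and 6 did so when the libraries of 480 µg/ml were left out as well. Over up to 23 alternatives, 24 of the 128 lost their call under at least 10. They were ACACA, AFP, ALB, BRCA2, CDX2, ESRP1, H2BC21, HSPD1, HSPH1, LAMB3, MAP2 and MT1G. The others were MTHFD2, MX1, PDGFRA, PIFO, PRKDC, RAD54B, SFRP1, SLC7A11, STMN2, TAP2, TP53I3 and TRIAP1. Only some of them are marked again below. Below, the 4 single left-out libraries are 24 µg/ml replicate 1, 24 µg/ml replicate 2, 240 µg/ml replicate 1 and 240 µg/ml replicate 2. Counts of calls without them are given in that order and with 480 µg/ml kept. The gene lists below were chosen with earlier results of these data known. A list's share of calls beside that of all genes is therefore a description, not independent support.

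The direction of change went with the length of the gene. Among 9752 genes that averaged a log2 CPM of 3 or more and have a span in RefSeq (GRCh38.p14), the shortest of 10 equal bins, up to 5567 bases from start to end, had a median log2 fold change of 0.14, with 56 genes higher and 23 lower of 976. The ninth bin, from 97785 to 161898 bases, had a median of -0.14, with 13 higher and 46 lower of 975. The longest bin stood at -0.11, with 32 higher and 54 lower of 976. Across these genes the Spearman rank correlation of span and fold change was -0.26, a description over genes that share the same 4 libraries and are not independent replicates. The same measure for 24 µg/ml against untreated cells, which shares the libraries of 24 µg/ml, was 0.07. By gene type, 512 of 14844 protein-coding genes rose (3.45%) and 613 fell (4.13%), where 3.34% and 3.49% of all genes did. Of 1578 long noncoding RNA genes 59 rose (3.74%) and 15 fell (0.951%), with a median of 0.23. Their share that rose was thus near that of all genes, and their share that fell was lower.

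**Figure D2:**
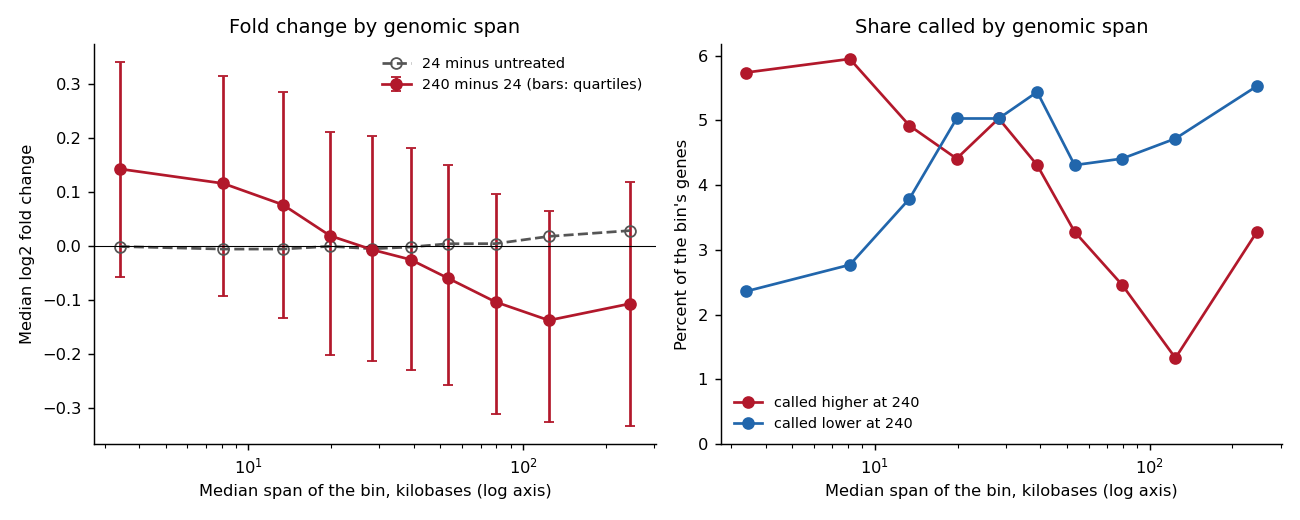
Genes averaging a log2 CPM of 3 or more, in 10 equal bins of genomic span (log axis, kilobases). At left, the median log2 fold change of 240 over 24 µg/ml with its quartiles (red) passes from 0.14 in the shortest bin to -0.14 in the ninth, while the median of 24 µg/ml over untreated cells (open circles) stays between -0.01 and 0.03; at right, the percent of each bin called higher (red) and lower (blue).

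Targets of p53 that changed over the step all rose. Of 16 targets of arrest and feedback 3 rose and 0 fell, and of 15 death genes 5 rose and 0 fell. Of 16 genes of repair, metabolism and secretion 9 rose and 0 fell, where 3.34% of all genes rose. In the same order, 3, 4 and 3 members had a log2 fold change below 0 without being called. The medians of the 3 lists were 0.45, 0.36 and 0.52, against 0.01 over all genes. For 24 µg/ml against untreated cells, which shares the libraries of 24 µg/ml, they were 0.36, 0.41 and 0.57. In that step edgeR called 0 genes, and 605 had an unadjusted p under 0.05, where 915 would come by chance. That step was not refitted without the libraries of 480 µg/ml. In bulk RNA, fewer cells of a kind and less RNA per cell cannot be told apart, here and in all results that follow. Once both libraries of 480 µg/ml were left out, the numbers rising were 13, 9 and 10, and with 1 library of the step left out as well they were 8 to 10, 7 to 8 and 9 to 10. With the libraries of 480 µg/ml kept, leaving out any library of the step gave 0 calls in each of the 3 lists.

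CDKN1A, which encodes the cyclin-dependent kinase inhibitor p21, had 189 and 158 CPM in untreated cells, 308 and 304 at 24 µg/ml, 720.3 and 694 at 240 µg/ml, with 763 and 1149 at 480 µg/ml. It rose over the step (log2 fold change 1.21 ± 0.19, adjusted p = 0.0131), and the 4 libraries formed 2 tight pairs that did not overlap. MDM2, the ubiquitin ligase that removes p53, stood at 199 and 223 CPM at 24 µg/ml against 397 and 397 at 240 µg/ml (log2 fold change 0.91 ± 0.13, adjusted p = 0.00998). TRIM22, an antiviral p53 target, went from 10.1 and 12.1 to 21.2 and 20.9 CPM (log2 fold change 0.92 ± 0.13, adjusted p = 0.0111).

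Of the death genes, FAS, which encodes a death receptor, had 8.45 and 11.1 CPM at 24 µg/ml against 22.5 and 20.5 at 240 µg/ml (log2 fold change 1.13 ± 0.17, adjusted p = 0.0121). BAX, the pore-forming protein of mitochondrial death, stood at 87.8 and 93.8 CPM for 24 µg/ml against 146 and 161 for 240 µg/ml (log2 fold change 0.76 ± 0.17, adjusted p = 0.0358). Both genes showed no overlap between doses. The decoy death receptor gene TNFRSF10C (0.75 ± 0.13, adjusted p = 0.0166), the oxidoreductase gene TP53I3 (0.84 ± 0.18, adjusted p = 0.0328) and TRIAP1, an inhibitor of apoptosis named after its values were seen (0.56 ± 0.14, adjusted p = 0.0459), rose as well.

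FDXR, a mitochondrial ferredoxin reductase, was 2.59 times as high at 240 as at 24 µg/ml. Its level was 7.71 and 7.60 CPM in untreated cells, 18.2 and 17.6 at 24 µg/ml against 47.3 and 45.5 at 240 µg/ml (log2 fold change 1.37 ± 0.18, adjusted p = 0.00966). GLS2, a mitochondrial glutaminase, rose from 1.31 and 2.12 to 4.78 and 4.96 CPM (log2 fold change 1.503 ± 0.24, adjusted p = 0.0154). The nucleotide excision repair gene DDB2 (0.71 ± 0.14, adjusted p = 0.0239) and the glycolysis regulator TIGAR (0.67 ± 0.11, adjusted p = 0.0166) rose too. GDF15, a stress cytokine of the same list, was not called over this step, with 283 and 299 CPM at 24 µg/ml against 416 and 349.7 at 240 µg/ml (0.40 ± 0.17, adjusted p = 0.185). Its step from untreated cells to 24 µg/ml was not called either (0.98 ± 0.17, adjusted p = 0.356). Nor was the difference of the 2 steps (-0.58 ± 0.29, adjusted p = 0.56).

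**Figure D3:**
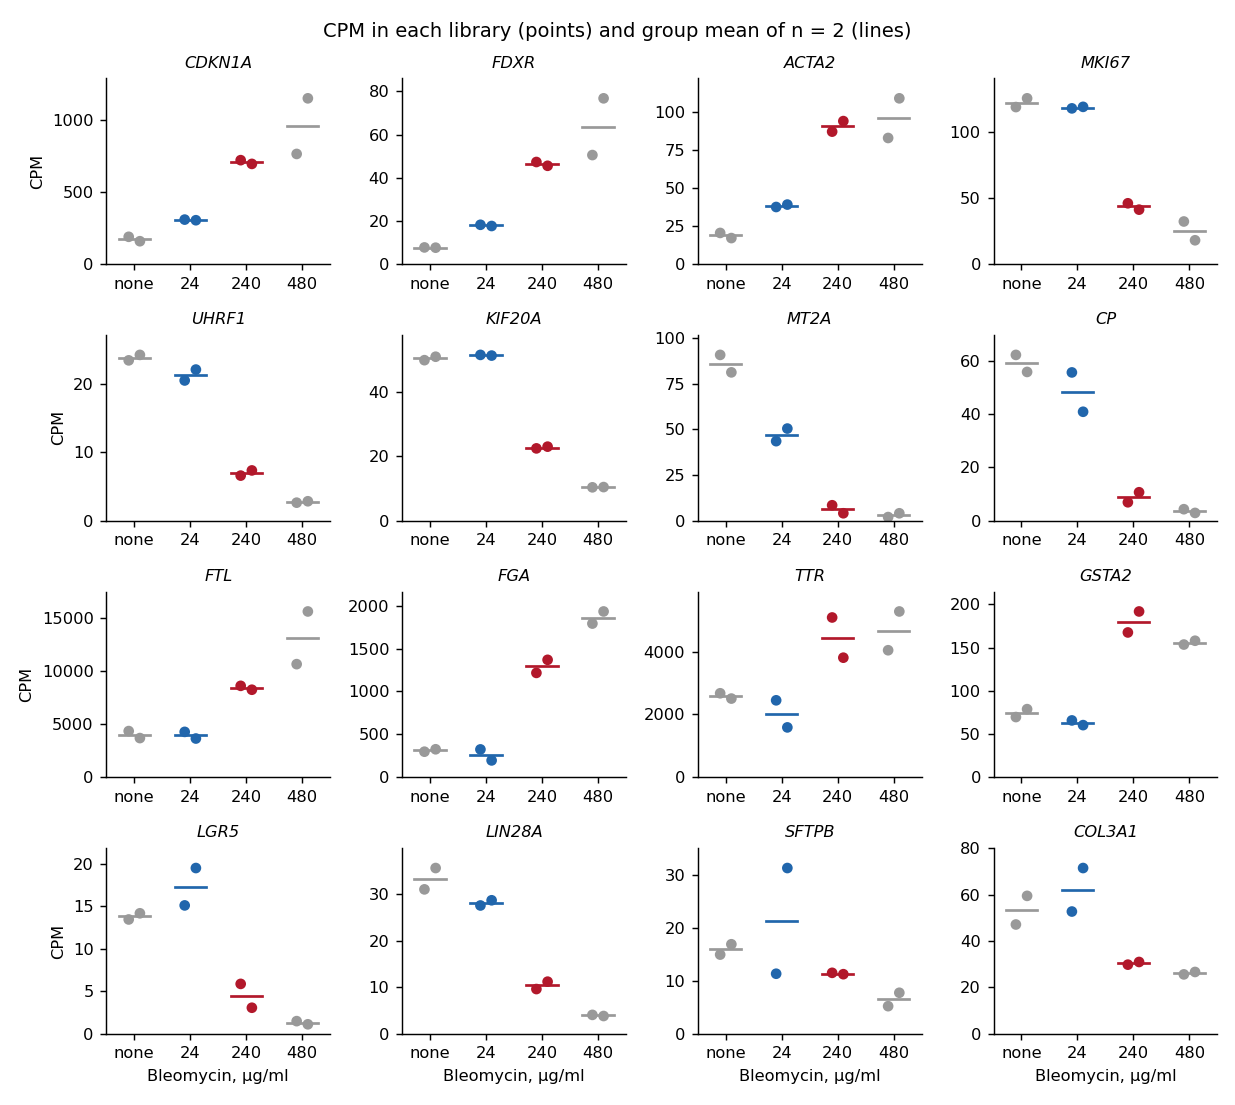
CPM of 16 genes (vertical axes, from 0) in each library by bleomycin dose in µg/ml (points; none is untreated) with the mean of each pair (lines, n = 2); 24 µg/ml is blue, 240 µg/ml red and the other groups grey. CDKN1A, FDXR and ACTA2 stand above untreated cells at 24 µg/ml and higher again at 240 µg/ml, MKI67, KIF20A and UHRF1 lie below both lower groups at 240 µg/ml, and SFTPB is spread from 11.3 to 31.2 CPM within the pair of 24 µg/ml.

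Most genes of cell division fell at this step. Of 36 genes of G2 phase and mitosis 27 fell and 0 rose, where 3.49% of all genes fell, and in all 36 both libraries of 240 µg/ml lay below both of 24 µg/ml, which holds for 31.7% of all genes. The median of the list was -0.86 for the step and 0.02 for 24 µg/ml against untreated cells. Without both libraries of 480 µg/ml 36 of 36 fell, and 35 to 36 fell with 1 library of the step left out as well. The 4 single left-out libraries gave 3, 0, 1 and 0 calls.

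KIF20A, a kinesin motor of the final stage of division, had the smallest p of the list. Its level was 49.7 and 50.8 CPM in untreated cells, 51.4 and 51.2 at 24 µg/ml, 22.4 and 22.9 at 240 µg/ml, with 10.3 and 10.4 at 480 µg/ml (log2 fold change -1.18 ± 0.11, adjusted p = 0.00434 for the step). The pairs of 24 and 240 µg/ml did not overlap, and within each of them the 2 libraries differed by less than 1 CPM. Its promoter is shown because genes of this list share 2 short elements near their start: the cell cycle homology element (CHR, TTTGAA or TTTAAA) and the CCAAT box. The 250 bases before the RefSeq start (GRCh38.p14, chr5:138178862-138179111, plus strand) are given 5′ to 3′ with both elements in capitals, counted on either strand.
KIF20A: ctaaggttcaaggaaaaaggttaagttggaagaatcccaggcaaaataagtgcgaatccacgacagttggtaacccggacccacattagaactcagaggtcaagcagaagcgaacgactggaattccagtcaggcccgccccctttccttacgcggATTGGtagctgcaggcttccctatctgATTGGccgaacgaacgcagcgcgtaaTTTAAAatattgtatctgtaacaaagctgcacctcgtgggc
The window holds 1 CHR element and 2 CCAAT boxes. Of the genes of the list that fell, 22 had a promoter in the table, and a CHR element was found in 18 of these and a CCAAT box in 20. Among all 13134 tested genes with a promoter the shares were 20.7% and 40.6%, a gene being counted once if any of its start windows held the element. Of the 9 members with a promoter that were not called, 8 held a CHR element and 7 a CCAAT box, so the letters did not set the called members apart within the list. A match describes letters, not a site in use.

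MKI67, which marks cycling cells, fell from 118 and 119 to 46.2 and 41.3 CPM (log2 fold change -1.44 ± 0.23, adjusted p = 0.0144), and CENPF, a kinetochore protein, from 67.9 and 69.1 to 22.6 and 19.3 CPM (log2 fold change -1.71 ± 0.29, adjusted p = 0.0162). In both genes the libraries of 24 µg/ml lay at the level of untreated cells, 119 and 126 CPM for MKI67 and 55.6 and 68.6 for CENPF. The survival and chromosome passenger gene BIRC5 (-0.90 ± 0.11, adjusted p = 0.00877), the kinase gene AURKB (-0.99 ± 0.13, adjusted p = 0.00985) and the spindle gene NUSAP1 (-0.84 ± 0.12, adjusted p = 0.0106) fell. SAPCD2, a protein of spindle orientation outside the list, had one of the 8 smallest p-values, with 35.3 and 31.6 CPM at 24 µg/ml against 12.9 and 11.6 at 240 µg/ml (log2 fold change -1.45 ± 0.14, adjusted p = 0.00434).

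Among 36 genes of DNA replication and nucleotide supply 17 fell and 0 rose, where 3.49% and 3.34% of all genes did, with a median of -0.61 for the step and -0.11 for the step before it. UHRF1, which carries DNA methylation through replication, stood at 23.4 and 24.2 CPM in untreated cells, 20.5 and 22.1 at 24 µg/ml, 6.59 and 7.35 at 240 µg/ml, with 2.63 and 2.84 at 480 µg/ml (log2 fold change -1.61 ± 0.13, adjusted p = 0.00434 for the step). The pairs did not overlap, and the mean level at 24 µg/ml was 3.06 times that at 240 µg/ml. RefSeq gives UHRF1 3 start sites. The first 2 windows hold an E2F motif (TTTCGCGC, TTTGGCGC or TTTCCCGC on either strand), the element of the factors that drive replication genes, and CCAAT boxes. They are printed with both in capitals, for the 250 bases before the starts on the plus strand of GRCh38.p14, chr19:4909251-4909500 and chr19:4909894-4910143.
UHRF1 start 1: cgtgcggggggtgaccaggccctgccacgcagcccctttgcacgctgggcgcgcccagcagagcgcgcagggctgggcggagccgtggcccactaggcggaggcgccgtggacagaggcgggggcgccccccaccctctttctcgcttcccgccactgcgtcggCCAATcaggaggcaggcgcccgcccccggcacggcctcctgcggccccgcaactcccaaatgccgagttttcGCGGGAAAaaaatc
UHRF1 start 2: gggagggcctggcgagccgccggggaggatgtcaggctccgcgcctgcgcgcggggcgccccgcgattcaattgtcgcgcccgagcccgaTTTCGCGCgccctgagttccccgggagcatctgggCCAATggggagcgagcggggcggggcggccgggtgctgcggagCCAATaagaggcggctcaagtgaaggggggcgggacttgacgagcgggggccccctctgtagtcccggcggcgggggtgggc
Counted per gene with a promoter, an E2F motif was found in 7 of 15 genes of the list that fell and in 6 of 16 not called, and in 4.4% of all tested genes.

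The helicase genes MCM4 (-0.81 ± 0.11, adjusted p = 0.0108) and MCM7 (-0.87 ± 0.13, adjusted p = 0.0123) and the ribonucleotide reductase gene RRM2 (-0.91 ± 0.14, adjusted p = 0.0138) fell. MCM7 had 85.9 and 93.0 CPM at 24 µg/ml against 49.5 and 48.1 at 240 µg/ml, with no overlap. TYMS, which makes thymidylate, lay on the other side without being called, at 89.0 and 93.2 CPM for 24 µg/ml against 115 and 116 for 240 µg/ml (0.34 ± 0.11, adjusted p = 0.0873). In the fit that leaves out 480 µg/ml 27 of 36 fell, and 20 to 24 with 1 library of the step left out as well. The single left-out libraries gave 1, 1, 1 and 0 calls.

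The genes called among those of homologous recombination, the Fanconi pathway, break signalling and end joining fell. Of 20 genes of homologous recombination and the Fanconi pathway, which repair breaks in dividing cells, 4 fell, where 3.49% of all genes did, with a median of -0.52, and all 20 had a log2 fold change below 0. They were BRCA2, which serves recombination at breaks (-0.88 ± 0.22, adjusted p = 0.0459), the Fanconi gene FANCB (-1.31 ± 0.29, adjusted p = 0.0328), and the recombination genes RAD54B (-0.90 ± 0.21, adjusted p = 0.0411) and RAD54L (-0.68 ± 0.13, adjusted p = 0.0244). Of 22 genes of break signalling and end joining 2 fell (9.09%, against 3.49% of all genes), with a median of -0.23: CHEK1, a checkpoint kinase that went from 22.5 and 22.8 to 14.5 and 12.1 CPM (log2 fold change -0.77 ± 0.16, adjusted p = 0.0287), and PRKDC, the DNA-dependent protein kinase (-0.70 ± 0.17, adjusted p = 0.0417). With the libraries of 480 µg/ml left out, the numbers falling were 13 and 9, while without any single library of the step both were 0. Among 28 genes of the kinase inhibitors, E2F factors and retinoblastoma family, CDKN1A alone rose and 9 fell (32.1%, against 3.49% of all genes), with 0 calls without any single library of the step. Those that fell included the repressor E2F8 (-1.07 ± 0.20, adjusted p = 0.0216), the nuclear lamina gene LMNB1, on this list as a target lost in arrested cells (-0.88 ± 0.13, adjusted p = 0.0128), and the inhibitor CDKN2B, which went from 11.8 and 11.8 to 7.09 and 5.52 CPM (log2 fold change -0.91 ± 0.15, adjusted p = 0.0162).

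Histone genes that changed rose, while the replication genes that changed fell. Of 17 tested histone genes, most of them of the clusters used during DNA replication, 6 rose, where 3.34% of all genes did, and 0 fell, with a median of 0.75 for the step and 0.04 for the step before it. The linker histone gene H1-2 had 18.5 and 13.6 CPM at 24 µg/ml, 40.0 and 32.3 at 240 µg/ml, with 76.9 and 94.2 at 480 µg/ml (log2 fold change 1.17 ± 0.19, adjusted p = 0.0144 for the step). H2BC4 went from 4.52 and 3.00 to 10.3 and 8.23 CPM (log2 fold change 1.30 ± 0.20, adjusted p = 0.0138), and H4C15, outside the list, from 6.51 and 6.56 to 16.2 and 18.1 CPM (log2 fold change 1.39 ± 0.14, adjusted p = 0.00501). None of the 3 overlapped between doses. Clustered histone genes are near-identical copies, and most of their messages lack the poly(A) tail by which the labelled library kit captures RNA, so their single values are uncertain. H2BC21 (0.59 ± 0.14, adjusted p = 0.0459) lost its call under 15 of 23 alternatives. Without both libraries of 480 µg/ml and 1 library of the step 6 to 7 histone genes rose, and the single left-out libraries gave 2, 0, 0 and 0.

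MT1X and MT2A fell most of the called genes whose log2 CPM averaged 3 or more. They encode metallothioneins, small proteins that bind zinc and copper and whose genes are switched on by the metal-sensing factor MTF1. Of 9 tested genes of metallothioneins and zinc exporters 5 fell, where 3.49% of all genes did, and 0 rose, with a median of -1.86 for the step and -0.72 for 24 µg/ml against untreated cells. MT1X (GRCh38.p14, chr16:56682470-56684196) had 33.3 and 35.0 CPM in untreated cells, 18.2 and 23.2 at 24 µg/ml against 1.65 and 0.784 at 240 µg/ml (log2 fold change -4.10 ± 0.42, adjusted p = 0.00539). MT2A had 90.8 and 81.2 CPM in untreated cells, then 43.5 and 50.4 at the lower dose and 8.43 and 4.05 at the higher (log2 fold change -2.92 ± 0.37, adjusted p = 0.00905). Both fell with no overlap, and MT1X was 17.2 times as high at 24 as at 240 µg/ml. In both genes replicate 1 of 240 µg/ml lay well above replicate 2.
The promoter of MT1X is shown with the core of the metal response element (TGCGCNC or TGCACNC, on either strand) in capitals, for the 250 bases before the start, chr16:56682220-56682469, plus strand.
MT1X: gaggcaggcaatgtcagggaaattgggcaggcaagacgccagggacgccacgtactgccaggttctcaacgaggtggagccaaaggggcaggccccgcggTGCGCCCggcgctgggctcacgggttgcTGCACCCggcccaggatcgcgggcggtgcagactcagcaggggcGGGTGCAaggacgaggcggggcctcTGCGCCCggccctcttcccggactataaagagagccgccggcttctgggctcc
The window holds 4 cores. Both of the called members with a promoter in the table, MT1X and MT2A, hold the core, as do 2 of 4 not called and 38.5% of all tested genes with a promoter.

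MT1E (-3.03 ± 0.30, adjusted p = 0.00477), MT1F (-1.86 ± 0.32, adjusted p = 0.0166) and MT1G, named after its values were seen (-2.02 ± 0.48, adjusted p = 0.0433), fell as well. These genes lie side by side on chromosome 16 and are near-identical, so how the authors' counting split reads among them is uncertain. SLC30A10, a manganese exporter of the zinc transporter family, was not called and lay on the other side (0.32 ± 0.22, adjusted p = 0.415). When 480 µg/ml was left out 6 fell, and 5 to 6 with 1 library of the step left out as well. The single left-out libraries gave 3, 2, 3 and 0.

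Among 16 genes of copper and iron handling 1 rose and 2 fell, where 3.34% and 3.49% of all genes did, with a median of -0.05. CP, which encodes the copper-carrying ferroxidase ceruloplasmin, fell from 55.6 and 40.9 CPM at 24 µg/ml to 6.90 and 10.7 at 240 µg/ml (log2 fold change -2.46 ± 0.26, adjusted p = 0.00591), and stood at 62.2 and 55.8 in untreated cells. TFRC, the transferrin receptor that takes up iron, fell from 226 and 209 to 119 and 96.1 CPM (log2 fold change -1.02 ± 0.17, adjusted p = 0.0166). FTL, the light chain of the iron store ferritin, rose from 4269 and 3643 to 8604 and 8238 CPM (log2 fold change 1.09 ± 0.18, adjusted p = 0.0159). The 3 genes showed no overlap between doses. Without the single libraries of the step, 1, 1, 1 and 0 genes of the list fell and 0 rose.

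Liver genes that changed mostly rose, from an uneven base. Of 29 liver secreted proteins 8 rose and 1, CP, fell, where 3.34% and 3.49% of all genes did, with a median of 0.47, and of 10 hepatocyte markers 6 rose and 0 fell, with a median of 1.13. The 3 fibrinogen chain genes, neighbours on chromosome 4, were among the liver proteins that rose. FGA had 298 and 326 CPM in untreated cells, 324 and 196 at 24 µg/ml, 1216 and 1368 at 240 µg/ml, with 1791 and 1932 at 480 µg/ml (log2 fold change 2.31 ± 0.22, adjusted p = 0.00434 for the step). FGB went from 1744 and 1311 to 4591 and 4586 CPM (log2 fold change 1.59 ± 0.15, adjusted p = 0.00434) and FGG from 106 and 55.1 to 386 and 473 CPM (log2 fold change 2.41 ± 0.27, adjusted p = 0.00678). In each the libraries of 240 µg/ml lay at least 2-fold above the higher library of 24 µg/ml.

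The 2 libraries of 24 µg/ml differed in their liver genes. In 26 of the 29 liver secreted proteins 24 µg/ml replicate 2 lay below replicate 1, with a median log2 ratio of -0.62, and in all 10 hepatocyte markers it did so, with a median of -0.68, against 0.01 over all genes. The summed level of the hepatocyte markers was 59149 and 40509 CPM at 24 µg/ml, 85482 and 78600 at 240 µg/ml and 54033 and 55623 in untreated cells. SFTPB and NKX2-1 differed in the opposite direction, with log2 ratios of 1.46 and 1.29 between 24 µg/ml replicate 2 and replicate 1. The part of this difference in the result was not tested. Without 24 µg/ml replicate 2 the median of the liver list over the step was 0.19 with 3 genes higher, and without replicate 1 it was 0.91 with 8. Leaving out 240 µg/ml replicate 1 or 2 left 3 and 0 higher. Of the hepatocyte markers 6, 2, 2 and 0 rose without the single libraries of the step. Without the libraries of 480 µg/ml and 24 µg/ml replicate 2, 9 of the 29 liver secreted proteins rose, and without them and any other library of the step 8 to 17 did.

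Among the other liver genes, the thyroid hormone carrier gene TTR rose from 2452 and 1589 to 5093 and 3811 CPM (log2 fold change 1.14 ± 0.22, adjusted p = 0.0246), and APOA2, a protein of high-density lipoprotein, from 97.4 and 63.4 to 188 and 195 CPM (log2 fold change 1.25 ± 0.25, adjusted p = 0.0248). ALB, the albumin gene, rose from 1907 and 985 to 2785 and 3533 CPM (log2 fold change 1.13 ± 0.26, adjusted p = 0.0392). AFP (0.64 ± 0.16, adjusted p = 0.0454) and ALB each lost their call under 10 alternatives. GSTA2, a glutathione transferase abundant in liver, had one of the smallest p-values of all genes. Its level was 69.6 and 78.8 CPM in untreated cells, 65.7 and 60.3 at 24 µg/ml against 167 and 192 at 240 µg/ml (log2 fold change 1.51 ± 0.13, adjusted p = 0.00434), and the 2 libraries of 24 µg/ml differed little.

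**Figure D4:**
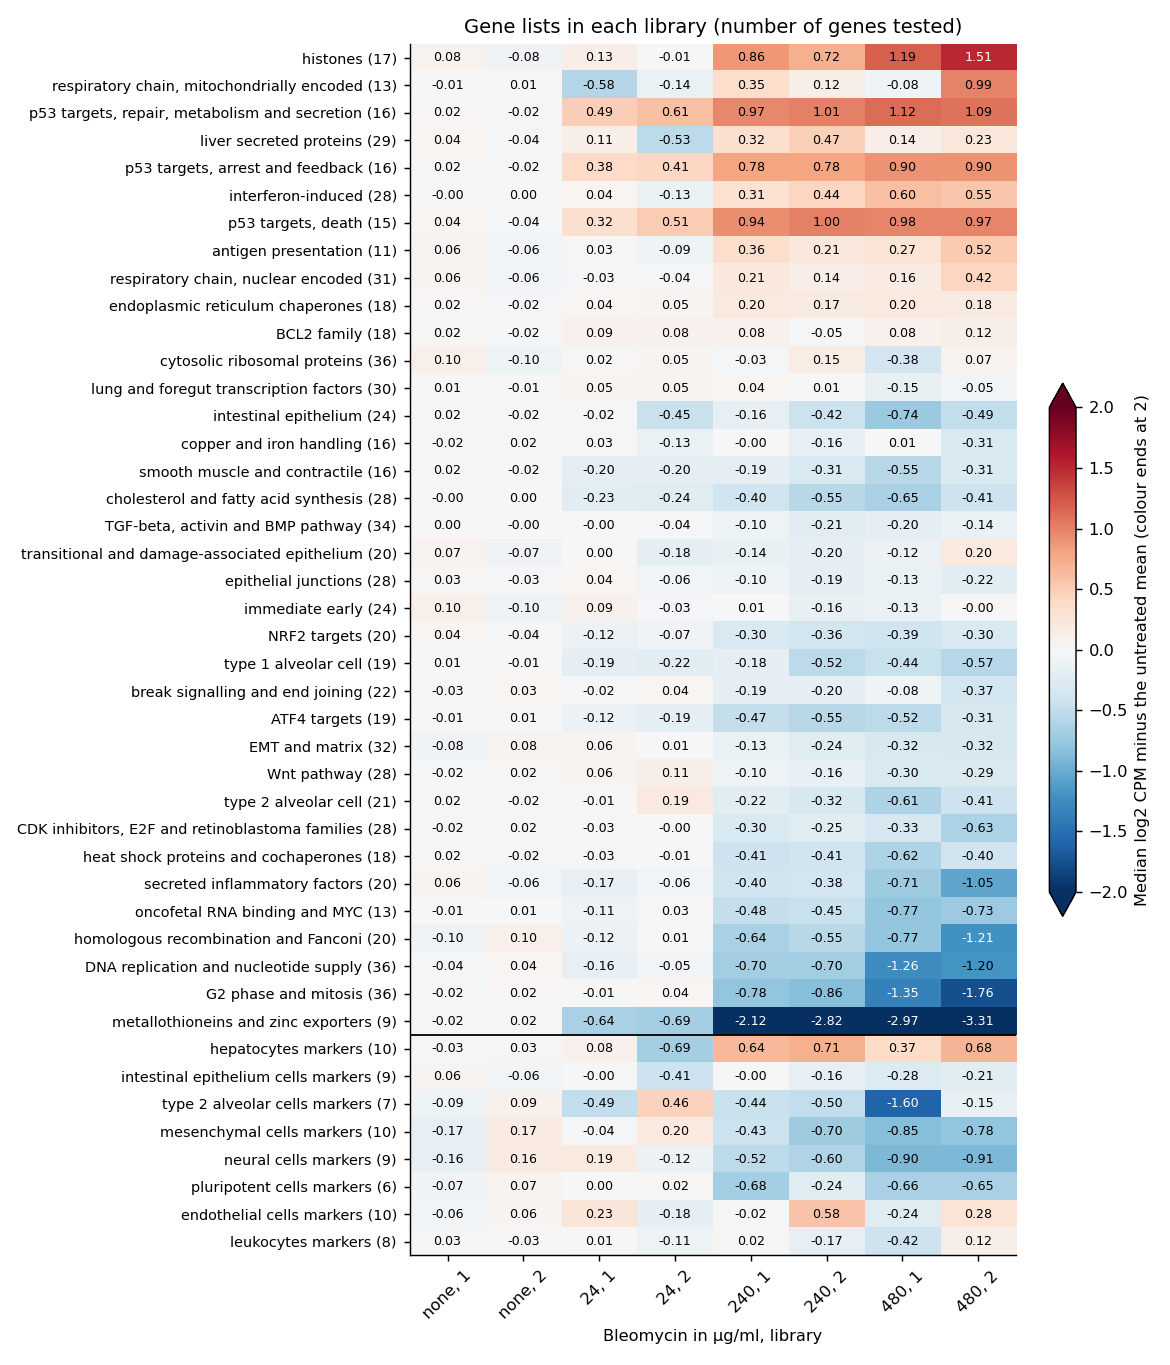
Median log2 CPM of each gene list (rows, number of genes tested in brackets) in each library (columns, dose in µg/ml and replicate) minus the mean of the 2 untreated libraries; red is higher, blue lower, colours end at 2, and cell type markers stand below the line. Metallothioneins, G2 phase and replication genes are low in both libraries of 240 µg/ml and near or moderately below 0 in both of 24 µg/ml, while liver, hepatocyte and type 2 cell markers differ between the 2 libraries of 24 µg/ml.

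Of 24 genes of intestinal epithelium 20 were not called, 1 rose (4.17%, near the 3.34% of all genes) and 3 fell (12.5%, against 3.49%), with a median of -0.04. At 24 µg/ml replicate 2 lay above replicate 1 in 2 of the 24 genes, with a median log2 ratio of -0.38. At 240 µg/ml this median was -0.37, and in untreated cells -0.05. The part of these differences in the result was not tested. The single left-out libraries gave 3, 1, 2 and 0 lower and 0 higher. CDX2, the intestinal master transcription factor, went from 231 and 189 to 307 and 312 CPM (log2 fold change 0.56 ± 0.14, adjusted p = 0.0437), a call lost under 10 of 23 alternatives. The carbonic anhydrase gene CA12 fell from 44.5 and 39.2 to 17.4 and 11.7 CPM (log2 fold change -1.53 ± 0.19, adjusted p = 0.00877) and the phosphate and urate transporter gene SLC17A4 from 14.2 and 11.2 to 3.52 and 3.90 (log2 fold change -1.77 ± 0.19, adjusted p = 0.00632). LGR5, described with the Wnt pathway, was the third that fell. MGAM2, of the maltase-glucoamylase family and outside the list, fell from 229 and 197 to 61.6 and 54.8 CPM (log2 fold change -1.87 ± 0.37, adjusted p = 0.0248).

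Among 28 genes of the Wnt pathway, which maintains stem cells of the gut and lung, 5 fell and 0 rose, where 3.49% and 3.34% of all genes did, with a median of -0.29. Without the single libraries of the step 2, 0, 2 and 0 fell. LGR5, a receptor that marks intestinal stem cells, had 13.5 and 14.2 CPM in untreated cells, 15.1 and 19.5 at 24 µg/ml against 5.88 and 3.07 at 240 µg/ml (log2 fold change -1.96 ± 0.28, adjusted p = 0.0114). The feedback inhibitors AXIN2 (-1.06 ± 0.14, adjusted p = 0.00966) and NKD1 (-1.33 ± 0.27, adjusted p = 0.0258) and the secreted inhibitors DKK1 (-0.96 ± 0.17, adjusted p = 0.0181) and SFRP1, the last named after its values were seen (-0.65 ± 0.16, adjusted p = 0.0459; a call lost under 13 of 23 alternatives), fell too. SMOC2, a secreted calcium-binding protein also known from intestinal stem cells, had the smallest p of all genes: 29.2 and 36.0 CPM at 24 µg/ml against 8.53 and 8.46 at 240 µg/ml (log2 fold change -1.94 ± 0.15, adjusted p = 0.00434). It stood at 23.0 and 26.2 CPM in untreated cells, and for LGR5 and SMOC2 alike both libraries of 24 µg/ml lay above the other 6 libraries.

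Among 13 genes of oncofetal RNA binding and MYC, 2 fell, where 3.49% of all genes did, and 11 of 13 lay below 0, with a median of -0.47. LIN28A, which blocks let-7 maturation in early embryonic cells, fell from 27.6 and 28.7 to 9.62 and 11.2 CPM (log2 fold change -1.43 ± 0.14, adjusted p = 0.00434). MYC fell from 54.7 and 65.1 to 33.4 and 17.6 CPM (log2 fold change -1.23 ± 0.28, adjusted p = 0.0359), and its 2 libraries of 240 µg/ml were less alike than those of 24 µg/ml. The single left-out libraries gave 1, 0, 2 and 0 calls in the list.

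Among 28 genes of cholesterol and fatty acid synthesis and uptake 7 fell and 0 rose, where 3.49% and 3.34% of all genes did, with a median of -0.12 for the step and -0.25 for 24 µg/ml against untreated cells. The fatty acid synthase gene FASN fell from 369 and 391 to 207 and 209 CPM (log2 fold change -0.87 ± 0.15, adjusted p = 0.0176). INSIG1, a sterol sensor partner (-0.80 ± 0.16, adjusted p = 0.0246), and ACACA, the acetyl-CoA carboxylase of lipid synthesis (-0.62 ± 0.13, adjusted p = 0.0273), fell. Without the libraries of 480 µg/ml and 1 library of the step 9 to 11 fell, and the single left-out libraries with 480 µg/ml kept gave 0, 0, 1 and 0.

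The heat shock genes that changed over the step fell. Of 18 chaperone genes 5 fell and 0 rose, where 3.49% and 3.34% of all genes did, with medians of -0.37 for the step and -0.04 for the step before it. HSP90AA1, the inducible form of the HSP90 chaperone, went from 951 and 1019 to 575 and 545 CPM (log2 fold change -0.81 ± 0.12, adjusted p = 0.0121), with no overlap. Its constitutive partner HSP90AB1 (-0.49 ± 0.10, adjusted p = 0.0282), the mitochondrial chaperonin gene HSPD1 (-0.54 ± 0.12, adjusted p = 0.0317), the exchange factor gene HSPH1 (-0.71 ± 0.14, adjusted p = 0.0268) and DNAJA1, a cochaperone named after its values were seen (-0.43 ± 0.11, adjusted p = 0.0477), fell. Of 18 chaperones of the endoplasmic reticulum 1 rose, CRELD2, from 9.37 and 9.81 to 19.5 and 22.5 CPM (log2 fold change 1.13 ± 0.20, adjusted p = 0.0196), and 0 fell. Without the libraries of 480 µg/ml and 1 library of the step 8 to 9 heat shock genes fell, but without any single library of the step and with 480 µg/ml kept 0 did.

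Of 19 targets of ATF4, the factor of the amino acid response, 4 fell and 0 rose, where 3.49% and 3.34% of all genes did, with a median of -0.24. They were the serine enzyme gene PSAT1 (-0.76 ± 0.14, adjusted p = 0.0216), the folate enzyme gene MTHFD2 (-0.66 ± 0.14, adjusted p = 0.0297), and the amino acid transporter genes SLC7A5 (-0.79 ± 0.17, adjusted p = 0.0319) and SLC7A11 (-0.97 ± 0.23, adjusted p = 0.0417). DDIT3, the stress factor CHOP, was not called and lay on the other side (0.48 ± 0.13, adjusted p = 0.0577). Of 20 targets of the oxidative stress factor NRF2, 4 fell and FTL alone rose, where 3.49% and 3.34% of all genes did, with a median of -0.18. AKR1B10, an aldo-keto reductase, fell from 13.5 and 15.2 to 6.34 and 5.60 CPM (log2 fold change -1.27 ± 0.17, adjusted p = 0.00966), as did its relatives AKR1C1 (-1.05 ± 0.16, adjusted p = 0.0142) and AKR1C2 (-0.76 ± 0.12, adjusted p = 0.0128), which are close copies of each other. SLC7A11 stands on both lists. Without the single libraries of the step 2, 0, 0 and 0 NRF2 targets and 0 ATF4 targets fell.

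Of 28 interferon-induced genes 4 rose (14.3%, against 3.34% of all genes) and 0 fell, with a median of 0.39 for the step and -0.01 for the step before it. PARP9, a regulator of interferon signalling, had 16.3 and 15.3 CPM at 24 µg/ml against 26.2 and 29.2 at 240 µg/ml (log2 fold change 0.80 ± 0.13, adjusted p = 0.016). IFI6, a mitochondrial protein (1.00 ± 0.17, adjusted p = 0.0162), USP18, which restrains the interferon receptor (1.08 ± 0.22, adjusted p = 0.0261), and MX1, an antiviral GTPase (0.82 ± 0.18, adjusted p = 0.0326), rose. Of 11 genes of antigen presentation 3 rose (27.3%) and 0 fell, with a median of 0.32. TAP1, a peptide transporter, went from 7.89 and 8.17 to 14.4 and 14.7 CPM (log2 fold change 0.86 ± 0.15, adjusted p = 0.0167), while TAP2 (0.69 ± 0.14, adjusted p = 0.0298) and HLA-B (0.74 ± 0.18, adjusted p = 0.0437) rose too. Leaving out any single library of the step left 0 calls in both lists, and with the libraries of 480 µg/ml out as well 5 to 10 interferon genes and 4 to 7 presentation genes rose.

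All 13 mitochondrially encoded genes of the respiratory chain lay higher in both libraries of 240 µg/ml than in both of 24 µg/ml, where 33.2% of all genes did, but 0 of 13 were called. The median was 0.58 for the step and -0.35 for 24 µg/ml against untreated cells. ND5, a subunit of complex I, had 1568 and 1664 CPM in untreated cells, 1099.7 and 1430.4 at 24 µg/ml against 2415 and 1894 at 240 µg/ml (0.77 ± 0.27, adjusted p = 0.124). The 2 libraries of 24 µg/ml differed by 0.48 in the median of the list. The nuclear genes of the chain had a median of 0.25 with 0 of 31 called, and the ribosomal proteins 0.01 with 0 of 36 called. Without both libraries of 480 µg/ml, 12 of 13 and 16 of 31 rose and 0 of 36 ribosomal proteins were called.

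Of 21 tested genes of type 2 alveolar cells 4 fell and 0 rose, where 3.49% and 3.34% of all genes did, with a median of -0.29. Without the single libraries of the step 1, 0, 0 and 0 fell. LPCAT1, which makes surfactant lipid, had 126 and 122 CPM at 24 µg/ml against 75.9 and 82.8 at 240 µg/ml (log2 fold change -0.65 ± 0.11, adjusted p = 0.0167). SLC34A2, a phosphate transporter of these cells, fell from 9.44 and 6.49 to 4.03 and 2.14 CPM (log2 fold change -1.37 ± 0.29, adjusted p = 0.0309). DMBT1 (-2.69 ± 0.53, adjusted p = 0.0245), at under 1 CPM in every library, and FASN, also on the lipid list, were the other two. SFTPB was not called, with 11.3 and 31.2 CPM at 24 µg/ml against 11.5 and 11.2 at 240 µg/ml (-0.91 ± 0.39, adjusted p = 0.186). Its higher library of 24 µg/ml set the difference, since the lower one lay level with both of 240 µg/ml. Without 24 µg/ml replicate 2 its fold change was 0.00028. NKX2-1 had 0.499 and 1.27 CPM and then 0.288 and 0.261 (-1.69 ± 0.48, adjusted p = 0.0695). The lipid transporter gene ABCA3 lay higher without being called, at 13.2 and 14.9 CPM for 24 µg/ml against 19.4 and 16.6 for 240 µg/ml (0.36 ± 0.16, adjusted p = 0.213).

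Among 19 genes of type 1 cells, the flat cells of gas exchange, 3 fell (15.8%, against 3.49% of all genes) and 0 rose, with a median of -0.23. The single left-out libraries gave 0, 0, 1 and 0. GPRC5A, a retinoic acid-induced receptor, fell from 259.9 and 284 to 132 and 84.6 CPM (log2 fold change -1.33 ± 0.19, adjusted p = 0.0108). RTKN2 (-1.02 ± 0.15, adjusted p = 0.0123), and ANXA1, a phospholipid-binding protein (-0.79 ± 0.15, adjusted p = 0.0239), fell. Of 30 transcription factors of lung and foregut 1 rose (3.33%, the share of all genes being 3.34%) and 0 fell. It was ID2, an inhibitor of differentiation factors, from 179.5 and 142 to 252 and 323 CPM (log2 fold change 0.84 ± 0.16, adjusted p = 0.022). Among 20 genes of transitional and damage-associated epithelium, a state described in injured alveoli, LAMB3 of the basement membrane (0.61 ± 0.15, adjusted p = 0.0476) and the lectin gene LGALS3 (0.69 ± 0.14, adjusted p = 0.0269) rose and CDKN2B fell, and KRT8 was not called (-0.17 ± 0.18, adjusted p = 0.621). KRT17, KRT5, TP63 and CDKN2A were too low to test. Among the transcription factors and the transitional genes 0 calls were made without any single library of the step.

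Most of the matrix genes that changed fell. Of 32 genes of epithelial-mesenchymal transition and matrix 8 fell and 1 rose, where 3.49% and 3.34% of all genes did, with a median of -0.27. COL3A1, a fibrillar collagen gene, had 52.7 and 71.5 CPM at 24 µg/ml against 29.8 and 31.0 at 240 µg/ml (log2 fold change -1.03 ± 0.17, adjusted p = 0.0162). COL12A1 (-0.98 ± 0.14, adjusted p = 0.012), COL1A2 (-0.90 ± 0.17, adjusted p = 0.0243) and the elastin gene ELN (-1.497 ± 0.30, adjusted p = 0.0273) fell, and the protease inhibitor TIMP1 rose from 17.8 and 16.5 to 33.8 and 27.3 CPM (log2 fold change 0.83 ± 0.19, adjusted p = 0.0365). COL1A1 (-0.26 ± 0.18, adjusted p = 0.397), FN1 (-0.30 ± 0.11, adjusted p = 0.131), VIM (0.19 ± 0.16, adjusted p = 0.509) and CDH1 (-0.24 ± 0.12, adjusted p = 0.231) were not called. Of 10 tested markers of mesenchymal cells 2 fell, COL3A1 and PDGFRA (-0.98 ± 0.22, adjusted p = 0.0358). The median of these markers was -0.92, with 8 of 10 below 0. In 7 of 10 both libraries of 240 µg/ml lay below both of 24 µg/ml, and in 2 above, where 31.7% and 33.2% of all genes did. Their summed level ran from 405 to 533 CPM at 240 µg/ml and from 435 to 443 at 24 µg/ml, with DPT and MEOX2 at no more than 2 counts. The part of these markers in the result was not tested. Without the libraries of 480 µg/ml and 1 library of the step 7 to 13 matrix genes fell and 2 to 4 rose, while the single left-out libraries with 480 µg/ml kept gave 1, 0, 0 and 0 lower and 0 higher.

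ACTA2, the smooth muscle actin gene taken as a marker of myofibroblasts, rose over the step. It had 20.4 and 17.1 CPM in untreated cells, 37.5 and 39.1 at 24 µg/ml, 86.9 and 93.9 at 240 µg/ml, with 82.8 and 109 at 480 µg/ml (log2 fold change 1.24 ± 0.16, adjusted p = 0.00926 for this step). Its gene model (GRCh38.p14, chr10:88935074-88991337) overlaps that of FAS (chr10:88964050-89017059) on the opposite strand. The library kit keeps strand, but whether the counting used it is not given in the sources used here, so reads of FAS and ACTA2 may not be fully told apart. Other contractile genes fell: TAGLN from 26.8 and 37.3 to 10.7 and 15.2 CPM (log2 fold change -1.31 ± 0.26, adjusted p = 0.0243) and CNN1 from 1.19 and 2.09 to 0.288 and 0.490 CPM (log2 fold change -2.06 ± 0.40, adjusted p = 0.024). Of the 16 tested, ACTA2 alone rose (6.25%, against 3.34% of all genes) and these 2 fell (12.5%, against 3.49%), and the median was -0.08. Without the single libraries of the step 1, 0, 0 and 0 fell and 0 rose.

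Among 34 genes of the TGF-beta, activin and BMP pathway 1 rose and 1 fell, 2.94% each, below the shares of all genes (3.34% and 3.49%), with a median of -0.13. ID2 was the gene that rose. TGFB1 was not called (-0.03 ± 0.20, adjusted p = 0.951), and its libraries overlapped. Of 28 junction genes 2 fell (7.14%), the claudin gene CLDN2 (-1.12 ± 0.22, adjusted p = 0.024) and the splicing regulator ESRP1 (-0.54 ± 0.13, adjusted p = 0.0424). Of 20 secreted inflammatory factors 1 fell, IL32, from 18.8 and 11.8 to 7.53 and 5.17 CPM (log2 fold change -1.27 ± 0.27, adjusted p = 0.0297), and 17 of 20 lay below 0, with a median of -0.46. CXCL8, a neutrophil attractant, was under 1 CPM in all 4 libraries and not called (-1.69 ± 0.72, adjusted p = 0.186), and IL6 had 0 counts in each. Without any single library of the step 0 genes of these 3 lists were called.

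**Figure D5:**
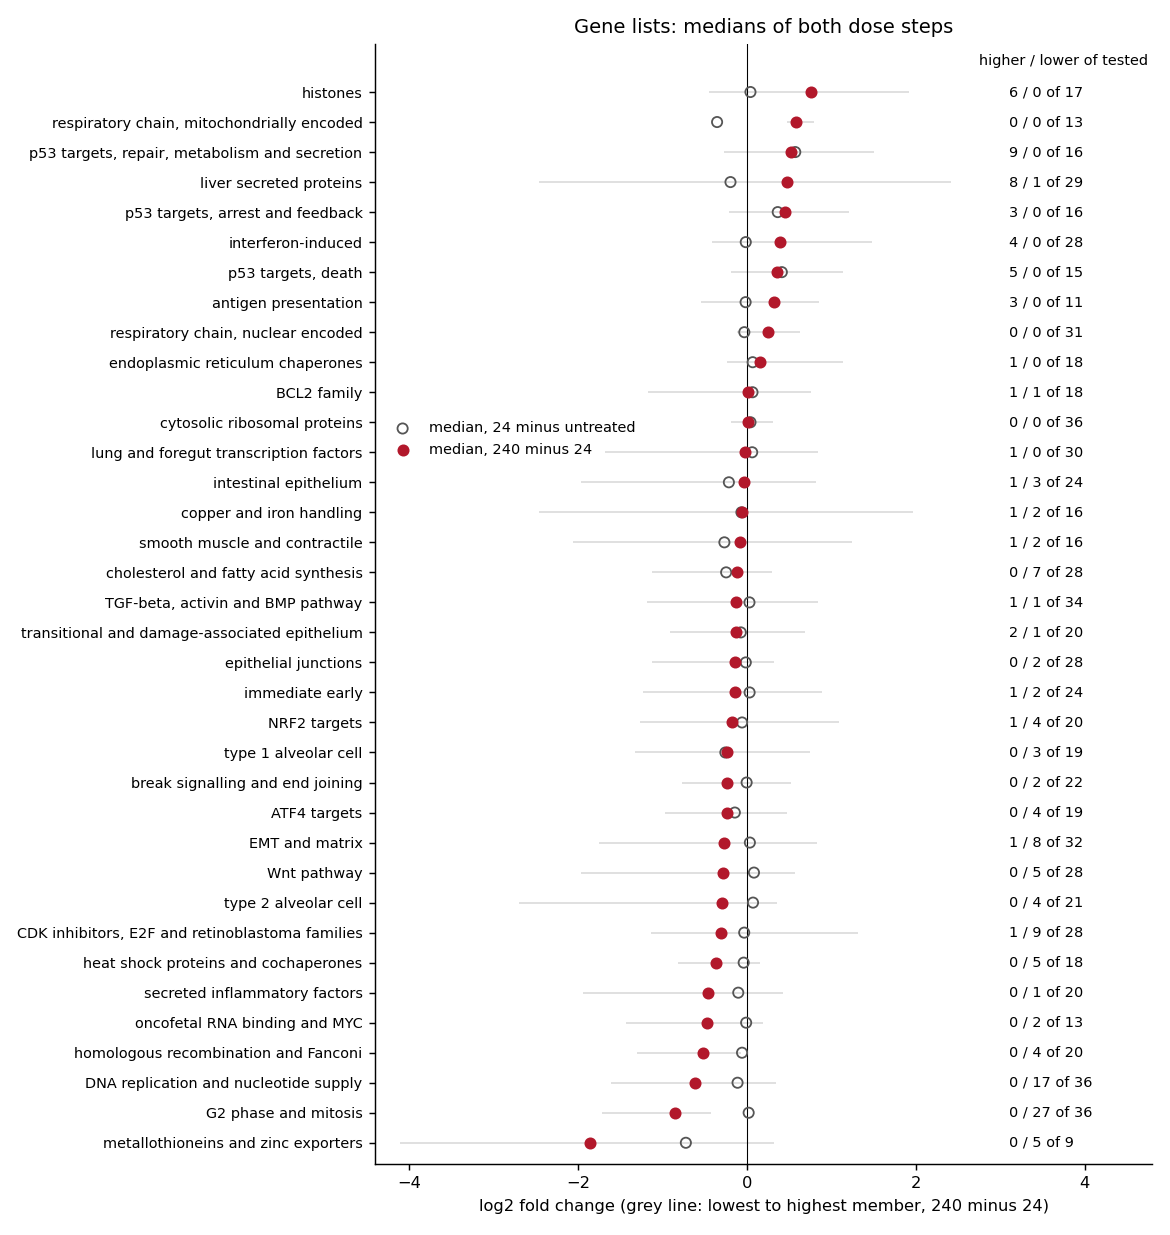
Median log2 fold change of each gene list from 24 to 240 µg/ml (red) and from untreated cells to 24 µg/ml (open circles), with a grey line from the lowest to the highest member over the first; the numbers at right are the members called higher and lower at 240 µg/ml and those tested. The p53 lists have both medians above 0.3, while the lists of G2 phase, replication and histones have the earlier median near 0 and the later one away from it; the steps share the libraries of 24 µg/ml.

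Genes outside the lists were among the largest changes. SLC43A2, an amino acid transporter, rose from 36.3 and 31.9 to 99.7 and 113 CPM (log2 fold change 1.64 ± 0.15, adjusted p = 0.00434). DEFB1, an antimicrobial defensin, rose from 5.85 and 4.55 to 17.3 and 19.7 CPM (log2 fold change 1.83 ± 0.21, adjusted p = 0.00686), and PROM2, a protein of membrane protrusions, from 6.91 and 8.92 to 18.8 and 24.5 (log2 fold change 1.45 ± 0.19, adjusted p = 0.00966). The vesicle transport gene SYTL1 (1.48 ± 0.21, adjusted p = 0.0108) and the hedgehog acyltransferase gene HHAT (1.41 ± 0.14, adjusted p = 0.00539) rose. IFFO2, of the intermediate filament family, fell from 20.2 and 23.3 to 7.51 and 7.08 CPM (log2 fold change -1.58 ± 0.14, adjusted p = 0.00434), and GFRA1, a receptor of glial-derived growth factor, from 124 and 176 to 50.5 and 39.0 (log2 fold change -1.75 ± 0.20, adjusted p = 0.00686). AOC3, an amine oxidase, had 10.1 and 21.9 CPM at 24 µg/ml against 3.86 and 4.18 at 240 µg/ml (log2 fold change -1.99 ± 0.31, adjusted p = 0.0141), so that its 2 libraries of 24 µg/ml differed by over 2-fold. C2CD4A (-1.63 ± 0.20, adjusted p = 0.00905) fell as well. Of the smaller lists, EGR1, an immediate early factor, rose (0.89 ± 0.16, adjusted p = 0.0216) and the phosphatase gene DUSP5 fell (-0.99 ± 0.16, adjusted p = 0.016), and with MYC, which fell, these were the called ones of 24 immediate early genes. In that list 4.17% rose and 8.33% fell, where 3.34% and 3.49% of all genes did. Of 18 genes of the BCL2 family, which govern mitochondrial death, BAX rose and BMF fell (-0.54 ± 0.12, adjusted p = 0.0319). That is 1 gene or 5.56% each way, near the shares of all genes.

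Markers of other cell types were mostly low or not called. Of all genes tested 3.34% rose and 3.49% fell. These marker lists are short, so that 1 gene of 8 is already 12.5%. Of 9 neural markers 3 fell, NES (-1.16 ± 0.13, adjusted p = 0.00678), STMN2 (-0.92 ± 0.19, adjusted p = 0.028) and MAP2 (-0.72 ± 0.18, adjusted p = 0.0493). The calls of STMN2 and MAP2 were lost under 10 and 11 of 23 alternatives. The summed level of the neural markers went from 101 and 97.1 CPM to 68.9 and 68.4. Of 6 tested markers of pluripotent cells LIN28A fell, and POU5F1 had 0 counts in the 4 libraries and NANOG at most 2. Of 5 basal cell markers KRT15 (2.16 ± 0.33, adjusted p = 0.0128) and DLK2 (1.54 ± 0.27, adjusted p = 0.0188) rose, with KRT14 at 0 and KRT5 at 0 counts in the 4 libraries, and of 5 secretory markers MUC5AC fell (-1.58 ± 0.24, adjusted p = 0.0136), with SCGB3A1 at 0. Of 8 ciliated markers PIFO rose (0.49 ± 0.12, adjusted p = 0.0437, lost likewise under 11) and CAPS fell (-1.31 ± 0.30, adjusted p = 0.0358). Endothelial, leukocyte and neuroendocrine markers had 0 of 10, 0 of 8 and 0 of 8 called, with summed levels of 6.69 to 9.78, 159 to 241 and 8.97 to 15.2 CPM. Their part in the results above was not tested.

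Whether a gene moved more over the 10-fold step than over the step from untreated cells to 24 µg/ml was tested in the same fit, as the difference of the 2 log2 changes. The libraries of 24 µg/ml enter both steps with opposite sign. By edgeR 0 genes were called, with 1786 at unadjusted p under 0.05 and a smallest adjusted p of 0.105, for SMOC2 (-2.35 ± 0.25, adjusted p = 0.105). DESeq2 called 98, and edgeR called 438 without the libraries of 480 µg/ml and 53 to 463 with 1 library of the step left out as well. The differences of GSTA2 (1.75 ± 0.23, adjusted p = 0.195), FGB (1.87 ± 0.27, adjusted p = 0.195), UHRF1 (-1.45 ± 0.21, adjusted p = 0.195), FGA (2.57 ± 0.38, adjusted p = 0.195), IFFO2 (-1.503 ± 0.23, adjusted p = 0.195) and KIF20A (-1.21 ± 0.18, adjusted p = 0.195) were over 5 SE from 0 without being called. CDKN1A (0.39 ± 0.32, adjusted p = 0.72), FDXR (0.15 ± 0.32, adjusted p = 0.914), MDM2 (0.19 ± 0.22, adjusted p = 0.798), FAS (0.20 ± 0.29, adjusted p = 0.856) and ACTA2 (0.21 ± 0.27, adjusted p = 0.829) lay within 2 SE of equal steps, which does not show that the steps were equal. Against untreated cells 0 genes were called at 24 µg/ml, with 605 at unadjusted p under 0.05, where 915 would come by chance. At 240 µg/ml 945 rose (5.16%) and 947 fell (5.17%) against untreated cells.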

How the data were processed

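RNA of 8 libraries was sequenced, 2 at each of 4 doses, with a stranded mRNA kit per the labels' protocols. Trimmomatic, HISAT2, Bowtie2 and StringTie with GRCh38 are named in the submitters' processing notes, and their versions, the annotation and the strand setting are not given in the sources used here. The authors deposited 1 table of raw read counts, FPKM and TPM per gene symbol. The deposited counts were tested and the deposited TPM gave levels per length, while FPKM was not used. No column was left unmapped to a sample.

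Counts of 46425 symbols were filtered with edgeR 4.0.16 (R 4.3.3; filterByExpr, minimum count 10 and total 15), scaled by TMM and fitted by quasi-likelihood in 1 model of all 8 libraries that had no term but group. The prior had 4.98 degrees of freedom and the residual 4. The 240 minus 24 µg/ml contrast, and the contrast of that step with the step from untreated cells, were adjusted by Benjamini-Hochberg over 18303 genes, with a threshold of 0.05. Named genes were those with the 12 highest and 12 lowest called fold changes at an average log2 CPM of at least 3, up to 4 of each list by p and 1 moving the other way, the 8 smallest p-values, 6 per direction of the contrast of steps, and a fixed set; not every gene so named is given, and some are not reported here. Members and lists were chosen with earlier results of these data known. Alternatives used DESeq2 1.42.0, limma 3.58.1 on log2(TPM + 1) and log2(TPM + 0.1) over genes with a mean TPM of at least 0.5, other filters and scalings, a replicate block, a test against a 1.5-fold change (glmTreat), and left-out libraries. Gene spans and promoters (250 bases before the start) came from RefSeq GRCh38.p14 by symbol. The fitting steps were tested on simulated data.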

Additional observations from a re-analysis of the deposited data

How the results depend on the processing

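Counts of 612 genes higher and 638 lower moved with the libraries and the test used. They were 880 and 1135 by DESeq2, 1049 and 1326 when low counts were kept in, 2081 and 2260 from the groups of the contrast alone, 2258 and 2464 without both libraries of 480 µg/ml, and 18 and 20 against a 1.5-fold change. On log2(TPM + 1) limma gave 296 and 557, and on log2(TPM + 0.1) 264 and 472, so that 34.7% and 35.9% of calls were higher against 49.0%; the median of all genes was -0.085 and -0.10 there. Leaving out 1 library gave 0 to 2210 genes higher and 0 to 2420 lower, and with the libraries of 480 µg/ml out as well, an alternative chosen after seeing the data, 1081 to 1667 and 1327 to 1995. The cause was not tested. For the contrast of steps edgeR called 0 genes (1786 at unadjusted p under 0.05). Other fits made their own calls: DESeq2 98, the fit with no filter 253, those from the groups of the contrast alone and without 480 µg/ml 438 each, those without 1 library 0 to 412, and those with 480 µg/ml out as well 53 to 463. The fold change of SFTPB ran from -1.46 to 0.00028 over the fits without 1 library, the latter without 24 µg/ml replicate 2, and to 0.0021 with 480 µg/ml out too. That of TGFB1 ran from -0.22 to 0.143 over the same fits, and turned to 0.074 and 0.143 without 24 µg/ml replicate 1 and 240 µg/ml replicate 2, and to 0.075 and 0.145 with 480 µg/ml out too.

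Over all genes tested no pairing by replicate number was seen: same-numbered deviations at 24 and 240 µg/ml correlated at 0.045, and all pairs of groups lay between -0.080 and 0.045. Whether same-numbered libraries shared a culture or batch cannot be told from these values. A fit with the replicate number as a block called 279 genes higher and 342 lower, 611 of them among the 1250, and 0 for the contrast of steps. Low counts limit the low genes: 3 counts were 0.0443 to 0.0561 CPM.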
